A study of Mus musculus with 48 samples.

Results

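Described here are 15 cells that the labels call AEC, for arterial endothelial cells, out of 24 AEC cells and 48 in the series. They were ordered by how strongly they carried transcripts of the G2 and M phases of the cell cycle, and the 5 highest-scoring cells were set against the 5 lowest. All cells were wild type, from embryos of C57 mice taken at day 10 of development, out of the aorta-gonads-mesonephros region, where the dorsal aorta produces the first blood stem cells. The other group of the series, HEC or hemogenic endothelial cells, came from the same region, stage and genotype. Each cell was sorted, lysed on its own and read as full-length polyA cDNA on a Nanopore PromethION flow cell. The labels name no animals, so the AEC cells counted as 1 sample, no p-value was computed, and every difference below describes these cells only.

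A cell entered if it had 200000 or more reads and *Cdh5* or *Kdr*, which encode an endothelial cadherin and a VEGF receptor, at 0.5 or more reads per 10000. Of the 24 AEC cells, 6 were left out for depth and 3 for the endothelial minimum. The score of a cell was the mean of log2(value + 0.1) over 8 genes, *Top2a*, *Mki67*, *Cdk1*, *Ccnb1*, *Cenpf*, *Tpx2*, *Ube2c* and *Birc5*. The cells on each side were chosen by the measured values of these 8 genes, so their difference between the sides is not a finding. Values below are reads per 10000 reads of the cell, and a difference is the mean log2(value + 0.1) of the 5 highest-scoring cells minus that of the 5 lowest. A difference of 1 or more, or of -1 or less, is called past 1.

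Before a cell divides it copies its DNA in S phase, pauses in G2, and separates its chromosomes in M phase. Cyclin-dependent kinase 1, bound to A-type and B-type cyclins, drives entry into mitosis, and the anaphase-promoting complex ends it by marking cyclins for destruction. Genes of G2 and M are transcribed together late in the cycle through the MuvB complex with B-Myb and FoxM1, which acts at promoter sites named CHR, and through NF-Y, which binds CCAAT boxes. Genes of S phase are driven earlier by E2F factors. Arterial endothelium is known to slow its cycle as it matures under Notch signalling and blood flow.

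The 5 highest-scoring cells were AEC 5, 2, 24, 4 and 6, with scores of 1.96, 1.51, 0.96, 0.84 and 0.74. The 5 lowest were AEC 9, 17, 15, 16 and 22, with scores of -1.54, -1.73, -1.88, -2.11 and -2.18. Lists of 5 values below keep these orders. *Top2a*, the topoisomerase that untangles replicated DNA, stood at 5.41, 8.92, 4.65, 7.29 and 4.04 in the highest-scoring cells and at 0.105, 0.318, 0.0766, 0.101 and 0.0978 in the lowest. *Mki67*, which encodes the chromosome-coating protein Ki-67, stood at 5.91, 3.15, 1.36, 3.72 and 2.5004 against 0.843, 0.05299, 0.0894, 0.0554 and 0.122. *Cdk1* stood at 7.77, 4.31, 6.65, 4.77 and 1.88 against 0.1405, 0.318, 0.128, 0.655 and 0.147. Each of these genes was higher in all 5 highest-scoring cells than in any of the lowest. *Cenpf*, a kinetochore protein gene, did not separate the sides: it stood at 0.782, 2.07, 0.0935, 0.06997 and 0.309 in the highest-scoring cells and at 0.784, 0.132, 0.664, 0.136 and 0.147 in the lowest, a difference of 0.30.

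**Figure D1:**
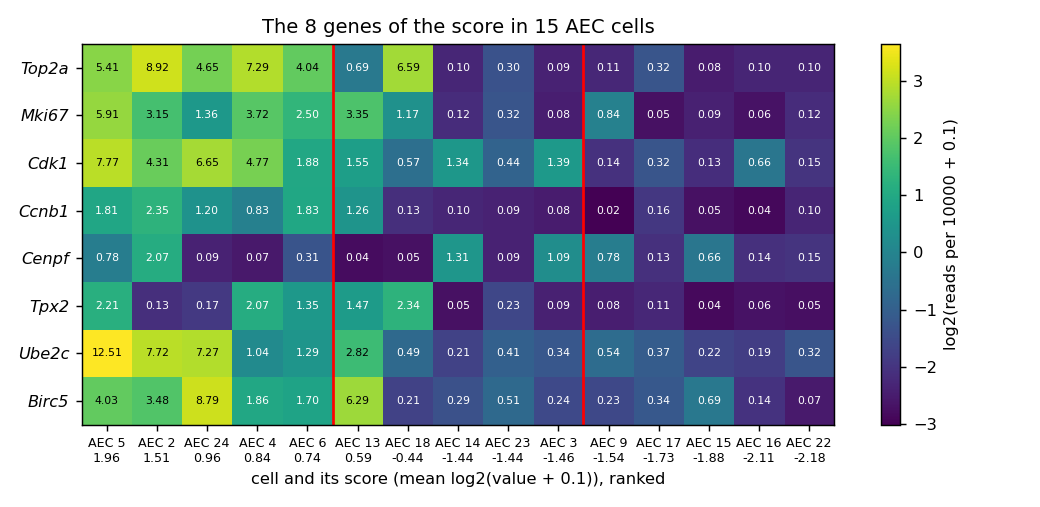
Heat map of the 8 genes of the score (rows) in the 15 AEC cells ranked by score (columns); colour gives log2(reads per 10000 + 0.1), the number in each tile the reads per 10000, and red lines part the 5 highest, the middle 5 and the 5 lowest cells. *Top2a* runs from 4.04 to 8.92 in the highest-scoring cells and from 0.0766 to 0.318 in the lowest, while *Cenpf* overlaps.

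The borders of the sides were close. AEC 6 was the last cell on the high side at 0.74, and AEC 13 followed at 0.59. On the low side AEC 9 stood at -1.54 and the next cell, AEC 3, at -1.46. The wider gaps in the order lay inside the middle 5 cells, between AEC 13, AEC 18 at -0.44 and AEC 14 at -1.44. With the summed value of the 8 genes, AEC 13 took the place of AEC 6 and AEC 23 that of AEC 9. With *Cenpf* left out, AEC 13 took the place of AEC 6 and AEC 14 that of AEC 17.

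The promoters of 5 genes of the score are shown because 4 of them hold both kinds of letters named above, CHR and CCAAT, and *Ccnb1* holds CCAAT alone. Capitals mark the CHR letters TTTGAA or TTCGAA and the CCAAT letters, each on either strand (TTCAAA and ATTGG are the same sites read on the other strand), in RefSeq windows from 250 bases before to 50 bases after the start of the gene, on GRCm38.p6. The window of *Top2a* was chr11:99024140-99024439 on the minus strand, that of *Mki67* chr7:135716330-135716629 on the minus strand, that of *Cdk1* chr10:69352863-69353162 on the minus strand, that of *Ccnb1* chr13:100786437-100786736 on the minus strand and that of *Ube2c* chr2:164769679-164769978 on the plus strand.
Top2a: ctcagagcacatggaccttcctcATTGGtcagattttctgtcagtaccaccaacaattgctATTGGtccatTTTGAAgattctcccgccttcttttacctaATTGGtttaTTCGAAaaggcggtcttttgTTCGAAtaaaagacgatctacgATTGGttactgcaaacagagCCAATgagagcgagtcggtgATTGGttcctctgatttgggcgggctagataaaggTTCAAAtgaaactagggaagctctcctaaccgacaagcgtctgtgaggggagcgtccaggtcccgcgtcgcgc
Mki67: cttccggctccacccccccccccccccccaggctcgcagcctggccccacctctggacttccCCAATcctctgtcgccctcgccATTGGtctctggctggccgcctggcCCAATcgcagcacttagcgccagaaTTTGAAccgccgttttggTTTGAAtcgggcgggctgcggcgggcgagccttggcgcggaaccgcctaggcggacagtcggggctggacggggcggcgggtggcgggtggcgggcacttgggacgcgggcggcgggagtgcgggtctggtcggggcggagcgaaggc
Cdk1: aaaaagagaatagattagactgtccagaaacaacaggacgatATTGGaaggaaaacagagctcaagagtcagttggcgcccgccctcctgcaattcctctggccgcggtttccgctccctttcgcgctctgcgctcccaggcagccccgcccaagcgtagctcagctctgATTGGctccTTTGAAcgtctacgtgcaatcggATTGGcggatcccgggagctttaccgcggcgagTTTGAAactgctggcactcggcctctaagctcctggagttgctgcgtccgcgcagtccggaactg
Ccnb1: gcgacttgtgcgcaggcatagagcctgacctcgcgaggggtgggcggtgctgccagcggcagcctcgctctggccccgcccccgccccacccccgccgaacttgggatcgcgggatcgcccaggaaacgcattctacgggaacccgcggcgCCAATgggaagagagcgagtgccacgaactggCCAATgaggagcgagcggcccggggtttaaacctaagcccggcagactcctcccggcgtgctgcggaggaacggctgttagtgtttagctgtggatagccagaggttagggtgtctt
Ube2c: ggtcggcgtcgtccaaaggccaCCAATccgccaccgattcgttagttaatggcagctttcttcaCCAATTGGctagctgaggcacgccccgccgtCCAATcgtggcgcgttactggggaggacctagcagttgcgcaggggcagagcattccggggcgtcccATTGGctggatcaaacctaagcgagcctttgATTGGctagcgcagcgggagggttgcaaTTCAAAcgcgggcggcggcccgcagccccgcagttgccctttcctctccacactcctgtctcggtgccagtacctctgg

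The *Top2a* window held 4 CHR matches and 6 CCAAT matches. That of *Mki67* held 2 and 3, that of *Cdk1* 2 and 3, and that of *Ube2c* 1 and 6, of which 1 pair of CCAAT matches on opposite strands overlapped. *Ccnb1*, the cyclin B1 gene, held 2 CCAAT matches and no CHR letters in its window, and *Birc5*, a subunit of the chromosomal passenger complex, held neither. Of the 8 score genes 7 had a window, of which 5 held CHR letters and 6 held CCAAT. Among the 27025 genes with a window, 21.7% held CHR letters and 41.1% held CCAAT. A gene with several windows was counted if any of them held the letters. Of the G2/M genes outside the score, 31 of 41 with a window, or 75.6%, held CHR letters, against 6 of 31, or 19.4%, of the S phase genes. CCAAT was found in 75.6% of the first list and in 71.0% of the second. Of 585 genes outside the score that were past 1 upward and had a window, 19.5% held CHR letters. The share was 15.9% of 2672 genes with a window over all genes compared. Of the genes higher in all 5 highest-scoring cells than in any of the lowest, 17 of 41 with a window, or 41.5%, held CHR letters. A match is a description of these letters and not of binding.

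The label of G2/M could not be settled for each cell by sums of G2/M and S phase genes. Outside the score, the summed level of 47 other G2/M genes was 98.02, 103, 65.96, 53.7 and 47.9 in the highest-scoring cells and 13.4, 31.6, 16.6, 19.2 and 24.5 in the lowest, with no overlap. The summed level of 43 S phase genes was 37.96, 31.8, 41.7, 70.2 and 62.7 against 8.31, 39.3, 8.45, 5.87 and 32.99, which overlapped. In AEC 5, 2 and 24 the G2/M sum exceeded the S phase sum. In AEC 4 and AEC 6 the S phase sum was the higher one, as it was in AEC 17 and AEC 22 on the low side. The sums are of different genes, so the larger one does not place a cell in a phase. The high side is therefore called the highest-scoring cells below and not G2/M cells. AEC 17 and AEC 22, on the low side, also had S phase sums, 39.3 and 32.99, far above the 8.31, 8.45 and 5.87 of the other lowest cells.

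**Figure D2:**
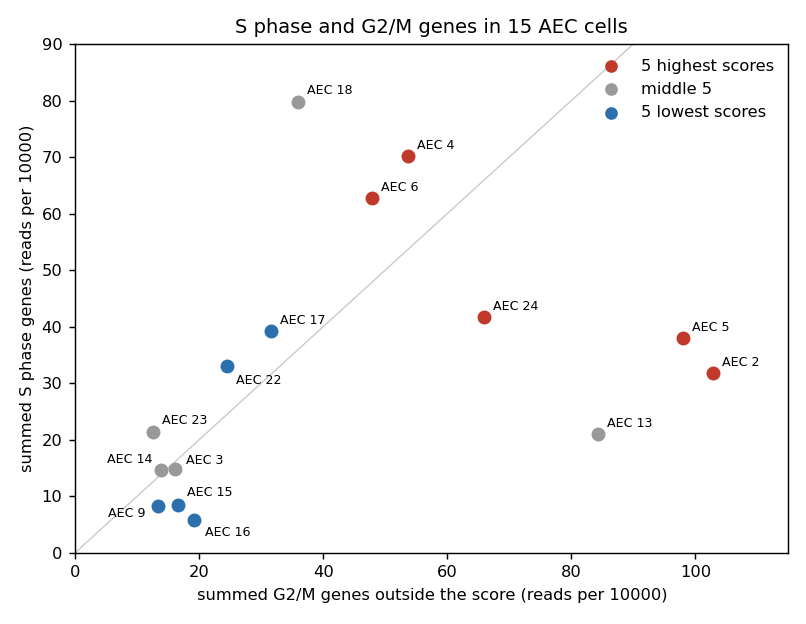
Summed level of S phase genes against that of G2/M genes outside the score, both in reads per 10000, with 1 point for each of the 15 AEC cells and a grey line of equality. AEC 5, 2, 24 and 13 lie below the line on the right. AEC 4, 6 and 18 lie above it, as do AEC 17, 22, 23 and 14 at lower G2/M sums. AEC 9, 15 and 16 lie at the lower left.

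Depth and complexity differed between the sides. The highest-scoring cells had 534988 to 4883854 reads and 8204 to 12658 genes above 0, and the lowest 377443 to 1984458 reads and 7248 to 10240.0 genes. Thinned to 200000 reads, the median was 7392 genes in the highest-scoring cells and 6236 in the lowest. Mitochondrially encoded reads made up 1.22 to 4.92% against 2.02 to 10.6%, with AEC 17 at the top. How far these move with the differences below was not tested. Among 3393 genes outside the score with a mean of 0.5 or more over the 15 cells, 729 were past 1 upward and 340 past 1 downward. These are 21.5% and 10% of all genes compared, and the median difference was 0.18. Under scaling by median-of-ratios size factors, the counts were 466 upward and 642 downward, and under the same scaling after thinning to 200000 reads, an alternative chosen after seeing the data, they were 553 and 376. Under the first of these scalings the median of all genes with a mean of 0.1 or more moved from 0.25 to 0.02. Without overlap between the sides, 52 genes were higher and 8 were lower, or 1.53% and 0.236%. At a mean of 0.1 or more, the share without overlap was 1.63% upward and 0.107% downward.

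The widest difference upward among genes whose copies can be told apart was that of *Rrm2* (chr12:24708241-24714146, plus strand), the regulatory subunit of ribonucleotide reductase, which makes DNA precursors. *Rrm2* stood at 6.48, 7.32, 8.43, 4.67 and 6.4999 in the highest-scoring cells and at 0.129, 0.265, 0.0383, 0.0806 and 0.147 in the lowest. The sides did not overlap, and the means were 6.68 ± 1.38 and 0.132 ± 0.0856 (SD between cells, n = 5 each), a difference of 4.92. *Pclaf*, which encodes a partner of the replication clamp PCNA, stood at 7.48, 3.07, 12.9, 5.36 and 2.804 against 0.773, 0.132, 0.179, 0.161 and 0.196, a difference of 4.02. All 5 highest-scoring cells were above every lowest cell for *Pclaf*, and the middle cells AEC 13 and AEC 18 reached 4.66 and 5.62. The histone genes *Hist1h2ae*, *Hist1h2ap* and *Hist1h2ao* differed by 4.96, 4.57 and 4.16. They belong to a family of near-identical copies, so the split of reads among them is uncertain, and AEC 24 alone held 219 for *Hist1h2ap*.

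Cyclins and kinases of G2 and mitosis were higher as a group in the highest-scoring cells. Of 17 genes with a mean of 0.1 or more, 13 were past 1 upward and 0 downward, with a median of 2.04, beside 21.8% upward and 7.79% downward and a median of 0.25 over all 8380 genes with that mean. *Ccna2*, cyclin A2, stood at 2.68, 4.78, 5.79, 2.49 and 1.28 against 0.176, 0.265, 0.0255, 0.131 and 0.147, a difference of 3.72. *Plk1*, the Polo-like kinase of centrosomes and kinetochores, stood at 4.76, 4.502, 7.44, 1.48 and 0.292 against 0.0351, 0.159, 0.0894, 0.0806 and 0.2201, a difference of 3.61. Both genes were higher in every highest-scoring cell, although AEC 6 was close to the lowest cells for *Plk1*. *Aurkb*, the kinase of the chromosomal passenger complex, stood at 0.8395, 5.77, 4.11, 1.39 and 0.521 against 0.0468, 0.106, 0.0255, 0.0302 and 0.0489, a difference of 3.63. Its levels in AEC 13 and AEC 18 were 0.0591 and 0.0781, within the range of the lowest cells. *Foxm1*, the transcription factor of late cell cycle genes, differed by 2.90, *Ccnb2*, cyclin B2, by 2.69, and *Aurka*, the kinase of spindle poles, by 2.21; each was without overlap, for *Aurka* by a narrow margin at levels under 0.1.

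Kinetochore and centromere genes followed, with 21 of 24 past 1 upward, 0 downward and a median of 1.74. Over all genes with a mean of 0.1 or more, 21.8% were past 1 upward and 7.79% downward, with a median of 0.25. The cell cycle lists share members, such as *Cenpa* and *Cenpe* here and among the G2/M genes, so their counts are not independent. *Bub3*, of the spindle assembly checkpoint, stood at 4.41, 5.95, 4.65, 3.12 and 2.203 against 0.08196, 1.22, 0.0255, 0.106 and 0.2201, a difference of 3.78. The sides did not overlap for *Bub3*, and AEC 17 was the highest of the lowest cells. *Cenpa*, the centromeric histone CENP-A, stood at 2.61, 6.69, 1.94, 0.121 and 1.76 against 1.85, 0.0265, 0.0383, 0.0705 and 0.0245, so AEC 9 was above AEC 4 and AEC 6 and the sides overlapped. *Cenpe*, the kinetochore kinesin, differed by 2.95, with AEC 17 at 1.09 above AEC 6 at 0.0858.

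Spindle genes were past 1 upward in 14 of 18 cases with a median of 1.76, and cytokinesis genes in 10 of 11 with a median of 1.84. In either list 0 were past 1 downward. The shares over all genes with a mean of 0.1 or more were 21.8% upward and 7.79% downward, with a median of 0.25. *Tacc3*, which steadies spindle microtubules, stood at 1.902, 1.85, 1.27, 2.11 and 1.08 against 0.0351, 0.05299, 0.217, 0.0504 and 0.0245, a difference of 3.36. *Prc1*, the bundler of midzone microtubules, stood at 3.89, 2.46, 0.243, 0.941 and 0.292 against 0.0234, 0.159, 0.0383, 0.0403 and 0, a difference of 2.90. *Anln*, anillin of the cleavage furrow, stood at 2.25, 0.0697, 3.35, 1.63 and 0.887 against 0.117, 0.05299, 0, 0 and 0.0489. The sides were apart for *Tacc3* and *Prc1* and overlapped for *Anln*, where AEC 2 sat among the lowest cells. *Hmmr*, a spindle assembly protein, differed by 3.07 without overlap, and *Kif20a*, a kinesin of cytokinesis, by 2.73 with overlap. *Racgap1*, a part of the centralspindlin complex, differed by 2.47, with AEC 22 at 1.17 inside the high range.

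Condensin, cohesin and separase genes were past 1 upward in 14 of 17 cases, with a median of 1.65. *Smc2*, the condensin ATPase, stood at 3.01, 3.18, 0.1495, 0.948 and 3.44 against 0.0468, 0.05299, 0, 0.0302 and 0.122, a difference of 3.43. AEC 24 was at the edge of the lowest cells for *Smc2*. *Esco2*, the acetyltransferase that locks cohesin on replicated DNA, differed by 3.03, *Ncapg*, of condensin I, by 2.52, and *Stag1*, of cohesin, by 2.80. The anaphase-promoting complex and its partners had 8 of 18 past 1 upward and a median of 0.94, beside 21.8% and 0.25 over all genes. *Ube2s*, which extends its ubiquitin chains, stood at 6.05, 2.39, 1.402, 1.35 and 2.06 against 0.164, 1.51, 0.217, 2.67 and 0.269, and the sides overlapped. *Cdc20*, its mitotic activator, stood at 0.803, 0.747, 0.336, 0.0891 and 0.904 against 0.0702, 0.159, 0.0383, 0.559 and 0.171, while the middle cell AEC 13 held 4.5997, above all 10 compared cells.

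**Figure D3:**
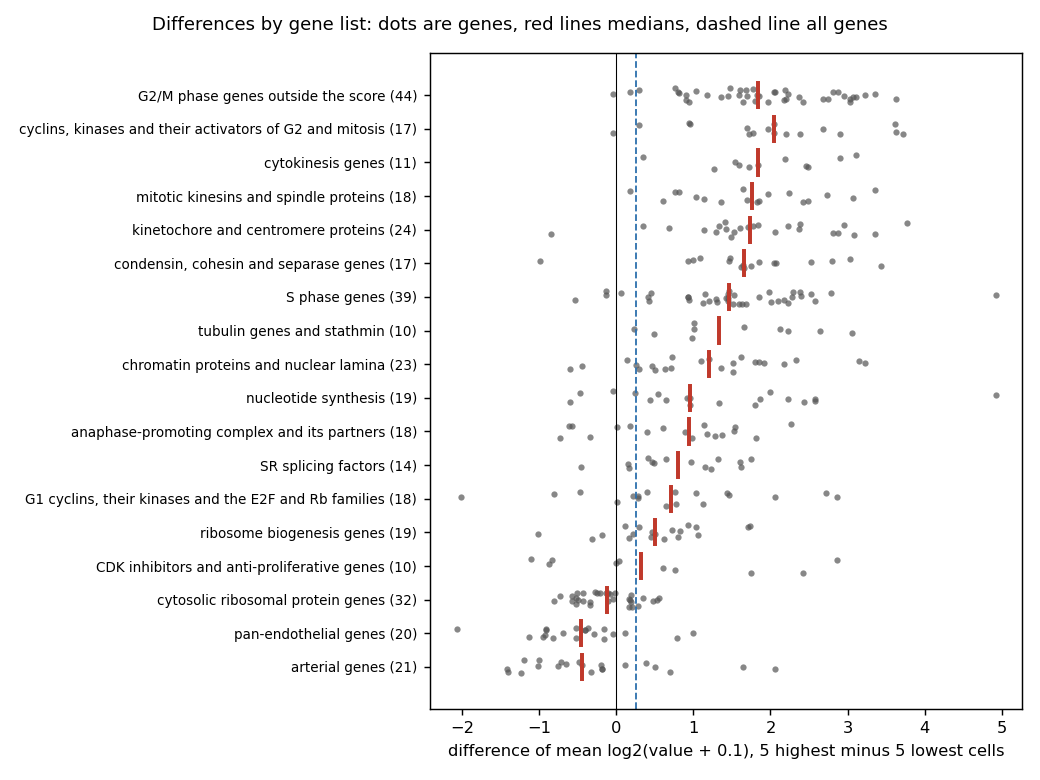
Difference of mean log2(value + 0.1), 5 highest minus 5 lowest cells, for the members of 18 gene lists with a mean of 0.1 or more; each dot is a gene, red lines mark list medians and the dashed line the median of all genes, 0.25. Medians run from 2.04 for cyclins and kinases to -0.46 for pan-endothelial and -0.45 for arterial genes.

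S phase genes were past 1 upward in 29 of 39 cases and downward in 0, with a median of 1.46, but only 1 of them, *Rrm2*, was without overlap. Over all genes with a mean of 0.1 or more, 21.8% were past 1 upward and 1.63% were without overlap upward. *Pcna*, the replication clamp, stood at 3.52, 0.388, 0.822, 4.25 and 5.44 in the highest-scoring cells and at 0.152, 1.93, 0.0639, 0.121 and 8.61 in the lowest. AEC 22, the lowest-scoring cell of all, was above all 5 highest-scoring cells for *Pcna*, and AEC 2 was among the low values. *Tyms*, thymidylate synthase, stood at 1.64, 1.22, 4.88, 1.91 and 0.395 against 0.0468, 4.95, 0.0383, 0.0151 and 0.0245, with AEC 17 as high as AEC 24. *Mcm2* and *Mcm5*, subunits of the replicative helicase, differed by 0.43 and 1.42. *Mcm2* was at 6.16 in AEC 22 and 3.23 in AEC 17, beside 0.0797 to 3.25 in the highest-scoring cells. *Atad2*, a chromatin ATPase of S phase, differed by 2.79 and *Ccne2*, cyclin E2, by 1.46.

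Nucleotide synthesis genes had 9 of 19 past 1 upward and a median of 0.96, beside 21.8% and 0.25 over all genes. *Tk1*, thymidine kinase, stood at 2.84, 0.936, 0.972, 1.65 and 1.48 against 0.0117, 0.212, 0.0255, 0.0504 and 1.69, a difference of 2.58. *Dut*, which removes dUTP, stood at 1.32, 1.03, 4.07, 1.78 and 4.98 against 0.08196, 0.0795, 1.303, 0.101 and 1.42, a difference of 2.43. Both overlapped through AEC 22, and *Dut* also through AEC 15. Replication-dependent histone genes, whose transcripts mostly lack the polyA tail that these libraries select, had 4 of 7 past 1 upward.

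Chromatin and lamina genes had 13 of 23 past 1 upward and a median of 1.20, beside 21.8% and 0.25 over all genes. *Hmgb2*, a DNA-bending protein of dividing cells, stood at 9.69, 6.32, 2.45, 6.03 and 6.28 against 0.398, 0.636, 0.3703, 1.28 and 0.269, a difference of 3.22, and the sides did not overlap. *H2afx*, the histone variant of the DNA damage response, differed by 3.15, with AEC 9 above AEC 6. The list of tubulin genes and stathmin had 7 of 10 past 1 upward and a median of 1.33. *Tuba1b*, an alpha-tubulin, stood at 24.4, 20.1, 12.7, 18.1 and 27.2 against 1.86, 8.74, 4.92, 4.59 and 4.92, a difference of 2.12 without overlap. Tubulin genes share long stretches of sequence, so the split among them is uncertain. SR splicing factors had 6 of 14 past 1 upward and a median of 0.80, and *Srsf3* stood at 8.01, 11.1, 10.1, 4.85 and 11.3 against 3.48, 0.795, 3.97, 1.84 and 4.696, without overlap.

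**Figure D4:**
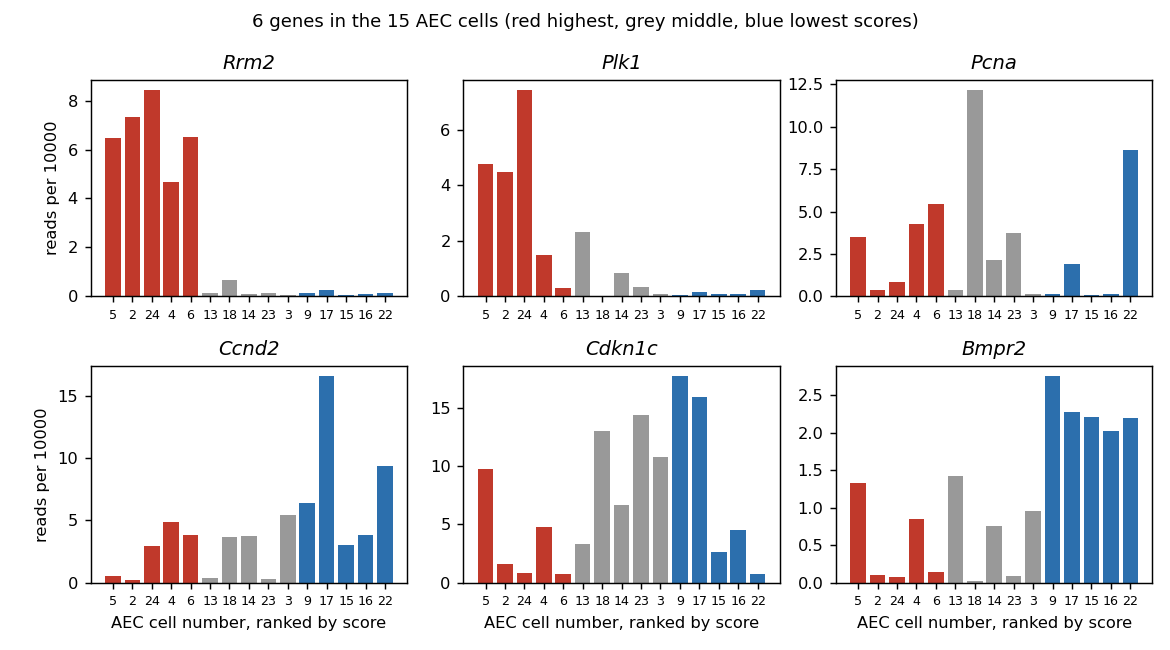
Bars give the level of 6 genes, in reads per 10000, in each of the 15 AEC cells ranked by score, red for the 5 highest, grey for the middle 5 and blue for the 5 lowest. *Rrm2* is at 4.67 to 8.43 in the red cells and at most 0.677 elsewhere, while *Pcna* is highest in AEC 18 and AEC 22, and *Bmpr2* is at 2.03 to 2.75 in the blue cells.

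Regulators of G1 were mixed. Of 18 G1 cyclin, kinase, E2F and Rb family genes, 7 were past 1 upward and 1 downward, with a median of 0.70. Over all genes with a mean of 0.1 or more the shares were 21.8% and 7.79%. *Ccnd2*, cyclin D2, which carries growth signals into the cycle, was the downward one, at 0.512, 0.219, 2.95, 4.85 and 3.81 against 6.36, 16.6, 3.001, 3.83 and 9.34, a difference of -2.01. AEC 4 and AEC 6 were within the low range for *Ccnd2*, and AEC 17 held 16.6. *Cdk2*, the S phase kinase, differed by 2.86, and *Tfdp1*, the partner of E2F factors, by 2.72. *Myc* differed by 2.06, of which AEC 6 held 6.49 and AEC 2 1.16. Of 10 genes of CDK inhibitors and anti-proliferative factors, 3 were past 1 upward and 1 downward, beside 21.8% and 7.79% of all genes. *Cdkn1c*, the CDK inhibitor p57, stood at 9.75, 1.56, 0.822, 4.803 and 0.738 against 17.7, 15.9, 2.61, 4.51 and 0.709, a difference of -1.11. The sides overlapped widely for *Cdkn1c*, and with the 3 highest against the 3 lowest cells its difference was 0.19. *Cdkn1a*, p21, reached 1 in AEC 4 only, among the 15 cells, at 1.49, and *Cdkn1b*, p27, in AEC 2 only, at 1.28. *Btg1*, an anti-proliferative factor, was among the 3 upward and differed by 1.75. Upward, 2 genes of this list were without overlap, beside 1.63% of all genes with a mean of 0.1 or more.

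The 15 widest downward differences are given among genes with a mean of 0.5 or more that were above 0 in at least 8 cells, with gene models named only by a clone or model number left out. *Serf1*, a small protein that modifies protein aggregation, had the widest difference, at 0.106, 0.0996, 0.168, 0.954 and 0.355 against 1.78, 7.02, 2.27, 5.23 and 3.3996, which is -3.35 without overlap. *Bmpr2*, the type II receptor for bone morphogenetic proteins, stood at 1.33, 0.0996, 0.0748, 0.846 and 0.137 against 2.75, 2.28, 2.21, 2.03 and 2.201, -2.55 without overlap. *Bmp6*, a ligand of that family, stood at 0.00819, 0, 0.0187, 0.0254 and 0.00572 against 0, 0.0265, 4.61, 1.01 and 2.86, so its difference of -2.70 rested on AEC 15, 16 and 22. *Cyp26b1*, which degrades retinoic acid, differed by -2.99, with 8.66 in AEC 22 and 3.51 in AEC 16. *Ocln*, the tight junction protein occludin, differed by -2.74 and *Dbn1*, the actin-binding drebrin, by -2.48. Outside the 15, *Emp3*, a membrane protein, differed by -2.36 without overlap. The 15 also held *Jagn1* and *Erp29* of the endoplasmic reticulum at -2.70 and -2.55, *Arl8b* of lysosomes at -2.57, and *Hax1* and *Mrpl12* of mitochondria at -2.54 and -2.49. The RNA decay kinase gene *Smg1*, the scaffold gene *Spag9*, *Cryzl2* and the long noncoding *Mir99ahg* completed the 15, from -2.77 to -2.52. Upward, the only one of the 15 outside the cell cycle and chromatin was *Stt3b*, a subunit of the glycosylating enzyme of the endoplasmic reticulum, at 0.8805, 3.79, 7.94, 1.698 and 2.53 against 0.0468, 0.0795, 0.0383, 0.403 and 0.2201.

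Endothelial genes were read in all 10 cells, and least in AEC 6. The pan-endothelial list had 0 of 20 past 1 upward and 2 downward, with a median of -0.46, beside 21.8% upward and 7.79% downward over all genes. Its sum was 144, 98.8, 66.6, 102 and 18.3 in the highest-scoring cells and 142, 54.02, 147, 158 and 104 in the lowest. *Cdh5* stood at 12.4, 1.14, 18.1, 6.14 and 0.898 against 10.2, 1.46, 14.1, 10.4 and 16.9. *Pecam1*, an adhesion molecule of endothelium, stood at 6.37, 12.6, 2.86, 2.47 and 1.58 against 12.6, 5.03, 6.4999, 5.02 and 1.83. The sides overlapped for both, and AEC 6 and AEC 17 were low for *Cdh5*. *Cldn5*, a tight junction claudin, differed by -2.07 and *Ramp2*, a receptor partner for adrenomedullin, by -1.14. Without 1 cell the list median ran from -0.83, without AEC 17, to -0.04, without AEC 6. It was -0.75 without AEC 5, -0.72 without AEC 4, -0.31 without AEC 24 and -0.26 without AEC 9. Median-of-ratios scaling gave -0.86 and ranking by summed value 0.34.

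Arterial genes were not uniform. Of 21, 2 were past 1 upward and 6 downward, with a median of -0.45, beside 21.8% upward, 7.79% downward and a median of 0.25 over all genes with that mean. Without 1 cell the list median ran from -1.07, without AEC 17, to 0.12, without AEC 6. It was -0.05 without AEC 9, 0.03 without AEC 15 and 0.36 when ranked by summed value, so its sign rests on which cells are compared. *Gja5*, the arterial connexin 40, stood at 36.4, 6.802, 10.7, 24.3 and 2.19 against 23.7, 5.33, 28.7, 22.6 and 17.5. *Dll4*, an arterial Notch ligand, stood at 0.968, 2.36, 5.05, 1.18 and 0.0801 against 0.445, 1.32, 0, 0.988 and 0.0245, a difference of 1.64. *Hey2*, a Notch target, stood at 1.796, 2.99, 0.318, 4.25 and 0.0858 against 0.0117, 0.0795, 0.153, 2.404 and 0.0245, a difference of 2.06. *Dll4* was highest in AEC 24 and AEC 2, and *Hey2* in AEC 4, AEC 2 and the low-side AEC 16, so both overlapped. *Notch1* differed by -1.20, *Nrp1*, a VEGF co-receptor, by -1.42, and *Jag2*, a Notch ligand, by -1.40. AEC 6 had an arterial sum of 7.404, beside 46.4 to 94.4 in the other highest-scoring cells. *Klf2* and *Klf4*, factors induced by flow, differed by 1.39 and 1.49, with overlap.

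Genes of red blood cells were read in every cell, and those of other cell types at low levels in most. The erythroid sum was 13.2 to 27.7 in the highest-scoring and 11.99 to 27.4 in the lowest cells, and the neural sum reached 6.02 in AEC 5. AEC 6 held *Runx1*, the factor of blood emergence, at 1.41, beside 0.0318 to 0.0561 in the other highest-scoring cells, and its hemogenic sum was 26.6. Its arterial and pan-endothelial sums were 7.404 and 18.3. In the 22 HEC cells under the same minimums, the medians of these 3 sums were 31.6, 10.7 and 34.1. Whether AEC 6 belongs with the HEC cells was not tested. Among the lowest cells AEC 17 and AEC 16 held *Runx1* at 1.75 and 0.962. AEC 6 also had the highest *Hsp90aa1*, a chaperone gene, at 49.95, and a ribosome biogenesis sum of 104. The 7 macrophage genes found summed to 0.0509 to 0.206 against 0 to 0.689, and the mesenchymal genes to 1.16 to 4.13 against 1.296 to 5.43. The embryonic globin *Hbb-y* was 4.43 to 6.83 against 4.07 to 14.9, in every cell. Of the defining markers, *Tubb3* and *Krt8* were listed at 0 in all 10 compared cells. *Nr2f2*, a venous transcription factor, stood at 0.0382 to 0.177 against 0 to 0.0585, and levels of that size were common for genes of other cell types, so they are not read as expression. Without AEC 6 and AEC 17, an alternative chosen after seeing the data, 765 genes were past 1 upward and 439 downward, and genes without overlap numbered 98 and 41, counts that fewer cells a side can only raise. The part of these cells' blood genes in the differences was not tested further.

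The 5 middle cells entered neither side. AEC 13 had a G2/M sum of 84.4 and an S phase sum of 20.97, with *Hmgb2* at 15.6 and *Ccnb2* at 5.36, but *Rrm2* at 0.123 and *Top2a* at 0.694. AEC 18 showed the other arrangement, with a G2/M sum of 35.999 and an S phase sum of 79.8, *Pcna* at 12.2, *Top2a* at 6.59 and *Ccnb1* at 0.1301. AEC 14, 23 and 3 resembled the lowest cells in both sums, at 13.9, 12.6 and 16.1 for G2/M and 14.7, 21.4 and 14.8 for S phase. As a description over the 15 cells, which share the score and differ in depth, the Spearman rho with the score was 0.87 for *Pclaf* and 0.85 for *Cenpa*, both among the 10 highest. The lowest rho was that of *Serf1* at -0.78, followed by *Selenok*, a selenoprotein of the endoplasmic reticulum, at -0.71, and *Dbn1* at -0.70.

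The deposited values assign reads to transcripts, given here for the main genes as a share of the gene's summed value in the highest-scoring cells. Whether each read covered its whole transcript was not checked, so the split among transcripts is uncertain. *Rrm2*, *Mki67* and *Ube2c* were read as 1 transcript each, Rrm2-201, Mki67-201 and Ube2c-202, at 100% to 3 digits. *Plk1* was listed with Plk1-201 alone, so its share could only be 100%. *Cdk1* was split between Cdk1-201 at 47.8% and Cdk1-202 at 51.8%, with the share of Cdk1-201 from 22.2% to 60.5% among the 5 cells. Both have 891 coding bases. *Aurkb* was split between Aurkb-201 at 55.2% and Aurkb-202 at 43.3%, and each was the whole of the gene in at least 1 cell. In the highest-scoring HEC cells the same transcripts made up 99.6% and 0% of *Aurkb*. *Ccna2* was 100% Ccna2-201 in AEC 5, 2, 4 and 6. In AEC 24 it was 14.5% Ccna2-201, 42.3% a nonsense-mediated decay transcript and 43.2% a processed transcript. In AEC 2, 63.9% of *Cenpf* was the retained-intron transcript Cenpf-205.

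HEC cells were scored in the same way as cells the rule had not used, with 22 of 24 passing the same minimums. They share no cell with the AEC comparison, and the difference between the groups was not tested. The G2/M list had a median of 1.83 in HEC cells beside 1.84 in AEC cells, with 36 and 35 of 44 past 1 upward and 30 in both. Over all 8380 genes with a mean of 0.1 or more over the 15 AEC cells, 8.34% were past 1 upward and 4.64% downward in HEC cells. All genes counted here were chosen by their level in AEC cells, so genes read only in HEC cells are left out. The S phase list had a median of 0.78 in HEC cells beside 1.46, with 17 and 29 of 39 past 1 upward. Of the 729 genes past 1 upward in AEC cells, 121 were also past 1 upward in HEC cells. They are 16.6% of the AEC genes, beside 7.96% of all genes compared that were past 1 upward in HEC cells, and 44.8% of the 270 HEC genes, beside 21.5% of all genes compared in AEC cells. Downward, 38 of 340 were shared, or 11.2% of the AEC genes, beside 5.48% of all genes compared in HEC cells, and 20.4% of the 186 HEC genes, beside 10% in AEC cells. *Rrm2* differed by 1.66 in HEC cells beside 4.92, *Ccna2* by 3.07 beside 3.72, and *Stt3b* by 0.20 beside 3.58. *Ccnd2* was lower in both, by -1.25 and -2.01. *Serf1* stood at 0.21 and *Bmpr2* at 0.30 in HEC cells, and *Dll4* at -2.33 beside 1.64. The arterial list had a median of -0.85 in HEC cells beside -0.45. Among the lowest-scoring HEC cells, HEC 7 had an arterial sum of 72.9 and the others 7.79 to 31.9, beside 6.86 to 46.1 in the highest-scoring HEC cells. How far the arterial differences in HEC cells rest on HEC 7 was not tested.

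**Figure D5:**
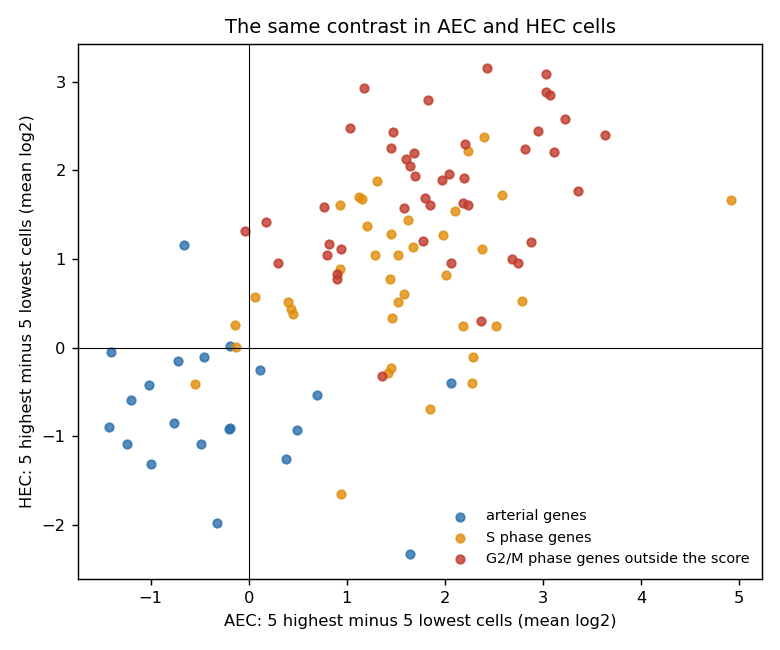
Difference of mean log2(value + 0.1), highest minus lowest scoring cells, in HEC cells against AEC cells for the members of 3 lists, 1 dot for each gene. Members have a mean of 0.1 or more over the 15 AEC cells. G2/M genes (red) have medians of 1.84 on the AEC axis and 1.83 on the HEC axis, S phase genes (orange) of 1.46 and 0.78, and arterial genes (blue) of -0.45 and -0.85.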

How the data were processed

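Single cells were read as full-length polyA cDNA on Nanopore flow cells. The deposited tables hold a signal per transcript for each cell, namely reads per 10000 reads of the cell over 52927 transcripts. The submitters' processing notes name Salmon 1.1.0, minimap2 2.18-r1015 and the build mm10; no other step is recorded in the labels. Each table's values were multiples of its lowest positive value (tolerance 0.01 read, 100% of values), from which depth was taken. Transcripts were matched to GENCODE M21 (52799 of 52927) and summed to 21435 genes.

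Cells were grouped by title, and each group counted as 1 sample, because no animals are named. No test was run. Differences are of mean log2(value + 0.1), and SDs are between cells. Genes outside the score with a mean of 0.5 or more were counted, and list medians used members with a mean of 0.1 or more. Named genes were the 15 highest and 15 lowest differences and the 10 highest and 10 lowest Spearman rho, among genes above 0 in at least 8 cells with a symbol, not mitochondrially encoded and not sex-linked, up to 4 members of each of 30 lists, and a fixed set; some genes that this rule takes are not reported here. Members and lists were chosen with earlier results of these data known. Alternatives changed the pseudocount, scaling, depth, cells per side, ranking, transcripts and cells left out. The difference calculation was checked on simulated reads that varied by sampling alone. Those reads held no spread between cells, so the check does not bear on how single cells differ here. Sequences came from RefSeq windows on GRCm38.p6. Software was pandas 2.3.3 and numpy 2.4.6 under Python 3.11.15, with figures by matplotlib 3.10.9. Precision is limited by depth, 534988 to 4883854 reads in the highest-scoring cells and 377443 to 1984458 in the lowest, and by 5 cells a side.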

Additional observations from a re-analysis of the deposited data

Results flagged for a closer look

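In 360 groups of 5 cells, being the named genes and summed lists on each side, 49 had 1 cell far from the other 4 (a gap over Dixon's critical value), or 13.61%. Chance flags about 1 in 20 groups, and values of single cells are skewed, so single flags carry little weight. AEC 17, 6 and 9 held 14, 8 and 7 of them.

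AEC 17 stood apart on the low side for *Tyms* at 4.95, *Adgrg1* at 4.29, *Ccnd1* at 1.78, *Cenpe* at 1.09, *Klf4* at 0.503, *Top2a* at 0.318, and the sums of nucleotide synthesis at 20.1 and SR splicing factors at 26.9. It was below the other lowest cells for *Cdh5* at 1.46, *Isca1* at 0.556, *Nos3* at 0.159, *Procr* at 0.106, *Spag9* at 0 and the neural sum at 0.106. AEC 9 was above the other lowest cells for *Cenpa* at 1.85, *Ddx21* at 1.85, *H2afx* at 1.51, *Mki67* at 0.843, *Pclaf* at 0.773, *Esco2* at 0.1405 and *Cdkn1b* at 0.0234.

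AEC 6 was above the other highest-scoring cells for *Hbb-bh1* at 1.48, *Runx1* at 1.41, *Jagn1* at 0.612, *Nr2f2* at 0.177, *Trappc6a* at 0.172 and *Ccnd1* at 0.0114, and below them for *Efnb2* at 0.315 and the arterial sum at 7.404. AEC 5 stood apart for *Pisd* at 0.7699 and *Spag9* at 0.512 and, below the others, *mt-Nd5* at 1.58. AEC 2 stood apart for *Mir99ahg* at 1.31, *Cdkn1b* at 1.28 and *Cyp26b1* at 0.388. AEC 24 stood above the others for *Hist1h2ao* at 10.6 and below them for *Cnpy2* at 0.0748 and *Casp8ap2* at 0, and AEC 4 above for *Cdkn1a* at 1.49.

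Among the other lowest cells, AEC 15 stood apart for the tubulin and stathmin sum at 51.97, *Smad7* at 1.84 and *Tacc3* at 0.217. AEC 16 stood apart for *Hey2* at 2.404, *Krt18* at 0.912, which was also the whole epithelial sum at 0.912, *Cdkn1a* at 0.00504 and, below the others, *Hax1* at 0.791. AEC 22 stood apart for *Stag1* and *Racgap1*, each at 1.17. The values under 0.2 given here as above the others, those of *Trappc6a*, *Nr2f2* and *Ccnd1* in AEC 6, *Esco2* and *Cdkn1b* in AEC 9 and *Cdkn1a* in AEC 16, stand beside cells at or near 0 and are not read as expression. The gene model *2410004B18Rik* was lower in every highest-scoring AEC cell, with a difference of -2.996, and higher in HEC cells, with 1.84; this difference between the groups was not tested.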

How the results depend on the processing

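Of the 109 named genes past 1, out of 149, 105 kept one sign in every setting tried. The 3 that turned were *Cdkn1c*, 0.19 with 3 cells a side, and *Nrp1* and *Nos3*, 0.56 and 0.35 when ranked by summed value. The long noncoding *Mir99ahg* has no protein-coding transcript and so gave 0 where such transcripts alone were used. The named genes include those of the score, whose measured values chose the cells on each side. Others were named for the widest differences or the highest or lowest rho in these cells. Every setting reused most of the same cells, so the kept signs were partly fixed in advance and are not an independent check. The median over all genes was 0.25 and moved with the scale. No paired analysis was possible because the numbers in the titles name single cells and do not link the groups, and no test was run.

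With a pseudocount of 0.01 the medians were 2.69 for G2/M genes, 2.38 for S phase, 3.44 for cyclins and kinases, 2.81 for kinetochore, 2.90 for spindle, 2.37 for condensin and cohesin, 3.43 for cytokinesis, 1.76 for tubulins and stathmin, 2.17 for nucleotide synthesis, 1.43 for G1 regulators, 2.38 for histones and 0.55 for all genes. With a pseudocount of 1 the same lists fell towards 0: 96 genes were past 1 upward and 48 downward, and medians were 0.73 for G2/M, 0.47 for S phase, 0.68 for cyclins and kinases, 0.60 for kinetochore, 0.53 for spindle, 0.70 for condensin and cohesin, 0.28 for the anaphase-promoting complex, 0.69 for cytokinesis, 0.59 for chromatin and 0.33 for histones. The log2 ratio of means gave 515 genes downward and medians of 2.44 for G2/M, 2.60 for cyclins and kinases, 2.39 for kinetochore, 2.33 for spindle, 2.45 for cytokinesis, 1.76 for tubulins and stathmin and 1.94 for histones. Median-of-ratios scaling gave 466 genes upward and 642 downward, 31 and 19 without overlap, and -0.53 for ribosomal proteins. With 3 cells a side, 601 genes were past 1 downward, 208 and 123 did not overlap, and medians were 0.50 for the anaphase-promoting complex, 0.16 for histones and -0.46 for ribosomal proteins. With 7 a side, 10 and 1 genes did not overlap, and medians were 1.66 for cyclins and kinases and 0.73 for histones. Ranked by summed value the histone median was 0.68.

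A mean of 0.1 or more gave 1824 genes upward, 653 downward and 137 upward without overlap, and no minimum 1893, 662 and 174. Chosen after seeing the data, leaving out AEC 6 and AEC 17 gave 98 and 41 genes without overlap and 0.77 for histones, the score without *Cenpf* 0.77 for histones, and thinning with median-of-ratios scaling 13 genes downward without overlap. Leaving out each cell in turn gave 691 to 956 genes upward and 316 to 503 downward, and 61 to 89 and 11 to 24 without overlap; the last counts, like those with 3 cells a side and without AEC 6 and AEC 17, can only rise with fewer cells a side. It also gave medians of 0.44 to 1.02 for the anaphase-promoting complex and 0.66 to 1.58 for histones. The cause of the other changes was not tested. With 5 cells a side and no animals named, the differences cannot be told apart from differences between single cells.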

Other observations

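The 3 AEC cells left out for low *Cdh5* and *Kdr* carried genes of mesenchymal and perivascular cells. The summed level of that list was 148, 150.1 and 111 in AEC 19, 20 and 11, beside 1.16 to 4.13 in the 5 highest-scoring and 1.296 to 5.43 in the 5 lowest cells. Their pan-endothelial sums were 11.7, 3.302 and 5.19. Their scores were 0.41, -0.92 and -1.34. The 6 AEC cells left out for depth, AEC 10, 1, 8, 21, 7 and 12, scored 0.14, -0.09, -0.16, -0.42, -0.59 and -0.92.

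Of the 52 genes without overlap upward, 28 were on none of the 14 cell cycle lists, a count read after their values were seen. Of these 28, 4 of the 24 genes with a promoter window, or 16.7%, held CHR letters, and of all 52, 17 of 41, or 41.5%. Over all genes compared the share was 15.9%. No explanation was tested.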
